A study of Mus musculus with 12 samples.

Results

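The glucocorticoid receptor gene Nr3c1 and 7 genes known as targets of the receptor, Tsc22d3, Fkbp5, Sgk1, Dusp1, Klf9, Zbtb16 and Cebpd, were followed in large peritoneal macrophages of female mice. They were listed by name, with earlier results of these data known, and all 8 were found once each among the 57010 gene identifiers of the count table. The cells had been sorted from the peritoneal cavity as F4/80 high and MHC class II low. WT mice and mice lacking Tim4 (Tim4KO), a receptor for phosphatidylserine encoded by Timd4, gave 4 groups of 3 libraries each. WT naive and Tim4KO naive cells came from mice that had received no tumour cells. WT ID8 and Tim4KO ID8 cells were taken 24 h after 8-week-old mice received ID8ZGO, a line of ID8 mouse ovarian tumour cells carrying ZsGreen and OVA, into the peritoneum. For these 2 groups the sort also required ZsGreen, so that challenge and uptake of tumour material were measured together. The labels do not say how the Tim4KO allele was made, nor whether the replicates of a group came from separate animals, and p-values measure the spread between these samples only. The age of the naive mice and any treatment given to them are likewise not in the labels.

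Glucocorticoids enter cells and bind the receptor, which is held by HSP90 and its co-chaperones in the cytoplasm. The receptor with its ligand moves to the nucleus, binds glucocorticoid response elements and raises the transcription of target genes, while it lowers the output of inflammatory genes driven by NF-kB and AP-1. In macrophages the pathway is known for restraining cytokine production and for favouring the clearance of dying cells. Several targets close feedback loops: Fkbp5 encodes a co-chaperone that lowers the receptor's affinity for its ligand, and Dusp1 and Tsc22d3 encode inhibitors of MAP kinase and NF-kB or AP-1 signalling.

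The libraries held 7358559 to 23170244 counts, and all 8 genes passed the filter on low counts that left 15943 genes for testing. Timd4 lay at 1178, 1279 and 1489 CPM (counts scaled to library size) in WT naive cells and at 7.71, 7.32 and 7.21 CPM in Tim4KO naive cells. In ID8 cells it lay at 882 to 1452 CPM in WT but at 1.38 to 1.92 CPM in Tim4KO, which matches the genotype labels in all 12 libraries. All 12 listed markers of large peritoneal macrophages were detected, and their summed level was 62560 to 73210 CPM in naive and 31490 to 37410 CPM in ID8 libraries, led in every group by Lyz2. The mean of Lyz2 fell from 45840 to 12770 CPM in WT cells, and the means of Alox15, Prg4, Csf1r, Selp, Tgfb2 and Timd4 were also lower there. Higher by mean were Adgre1, which encodes F4/80 (3157 to 4747 CPM), Cd5l (1138 to 2328 CPM), Icam2, Itgam and Gata6. One library stood apart: the reads of WT ID8 replicate 3 differed from the other WT ID8 libraries more than any other pair within a group did, with chi-square per degree of freedom of 49.0 and 82.6 against 5.28 to 28.1. It also held the least summed signal from 1946 olfactory and vomeronasal receptor genes of low mean level, at 6.25 CPM against 41.9 to 836 CPM in the other 11 libraries. Results that rest on this library are given with and without it. Because these are bulk samples, fewer cells of a type and less RNA per cell cannot be told apart.

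Promoter windows were found for 5 of the 8 genes (Tsc22d3, Fkbp5, Sgk1, Klf9 and Dusp1, 12 windows in all, RefSeq on GRCm38.p6). They were searched on both strands, over 250 bases before and 50 bases after each start site, for the core of the glucocorticoid response element (GNACA, then any 3 bases, then TGTNC, its inverted repeat), its half-site (AGAACA), the cyclic AMP response element (TGACGTCA) and an E-box (CACGTG). Sgk1 had 6 of these windows, Tsc22d3 had 3 and the other genes had 1 each. The core was present in 1 of the 12 windows, 1 of the 6 of Sgk1 and printed here, and in 0.475% of all 32851 windows. The half-site can overlap the core, and was present in 4 of the 12 windows against 19.0% of all. The cyclic AMP response element was present in 1 of the 12 windows and in 1.79% of all, and the E-box in 3 of the 12 and in 7.15% of all. The 250 bases before the start site are shown for the gene that rose (Fkbp5) and for the Sgk1 window that held the core. They are also shown for the gene with the highest level per length (Dusp1). Capitals mark matches to the core, the cyclic AMP response element and the E-box.
Fkbp5, chr17:28486150-28486399, minus strand: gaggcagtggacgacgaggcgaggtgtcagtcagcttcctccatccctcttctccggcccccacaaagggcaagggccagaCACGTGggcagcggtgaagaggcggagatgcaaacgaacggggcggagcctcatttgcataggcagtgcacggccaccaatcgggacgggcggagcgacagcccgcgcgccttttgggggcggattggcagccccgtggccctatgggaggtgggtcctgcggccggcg
Sgk1, chr10:21993640-21993889, plus strand: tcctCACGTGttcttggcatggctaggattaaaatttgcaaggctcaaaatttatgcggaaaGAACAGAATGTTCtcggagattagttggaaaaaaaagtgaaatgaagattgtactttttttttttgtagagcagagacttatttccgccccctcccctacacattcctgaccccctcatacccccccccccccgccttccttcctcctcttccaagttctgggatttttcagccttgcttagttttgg
Dusp1, chr17:26508473-26508722, minus strand: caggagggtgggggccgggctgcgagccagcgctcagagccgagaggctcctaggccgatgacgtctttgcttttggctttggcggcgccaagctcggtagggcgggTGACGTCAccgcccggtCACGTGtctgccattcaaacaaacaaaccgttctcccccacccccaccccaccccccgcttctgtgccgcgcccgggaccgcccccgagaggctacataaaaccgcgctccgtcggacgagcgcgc
Counted from the start site, the core began at -188 in the Sgk1 window, between an E-box at -246 and the start. The E-box began at -169 in the Fkbp5 window. In the Dusp1 window the cyclic AMP response element began at -143 and the E-box at -126. These matches describe letters in the reference and no binding was measured.

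After the challenge, Cebpd fell in both genotypes, Zbtb16 fell and Fkbp5 rose in WT cells, and Klf9 fell in Tim4KO cells. The receptor gene itself did not pass the test in any comparison. A difference of responses between the genotypes passed the test for 0 of the 8 genes, where 0% of all genes passed. In WT cells 3 of the 8 genes passed the test (edgeR, Benjamini-Hochberg adjusted p below 0.05 over all genes), 1 higher and 2 lower, where 31.8% of all genes tested did (19.5% higher and 12.3% lower). In Tim4KO cells 2 of the 8 passed, both lower, where 16.6% of all genes did (11.5% higher and 5.06% lower). Libraries of the WT groups did not overlap for 1 gene higher and 4 lower after challenge, where 23.3% and 21.0% of all genes were, and in Tim4KO for 3 genes lower, where 18.1% of all genes were. The called counts, 3 of 8 and 2 of 8, lie near the shares among all genes. The median log2 difference over the 8 genes was -0.79 in WT and -0.76 in Tim4KO, against -0.04 and -0.05 over all genes tested. Between genotypes, 0 of the 8 genes passed the test in naive cells, where 0.0439% of all genes did, and 0 of 8 in ID8 cells, where 0.0565% did. At an unadjusted p under 0.05, 3 of the 8 genes differed between genotypes in naive cells, where 999 of the 15943 genes tested did, and 1 in ID8 cells, where 1935 did. DESeq2 called 1 of the 8 genes in naive cells and 52 over all genes, and 0 of the 8 in ID8 cells and 265 over all genes.

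**Figure D1:**
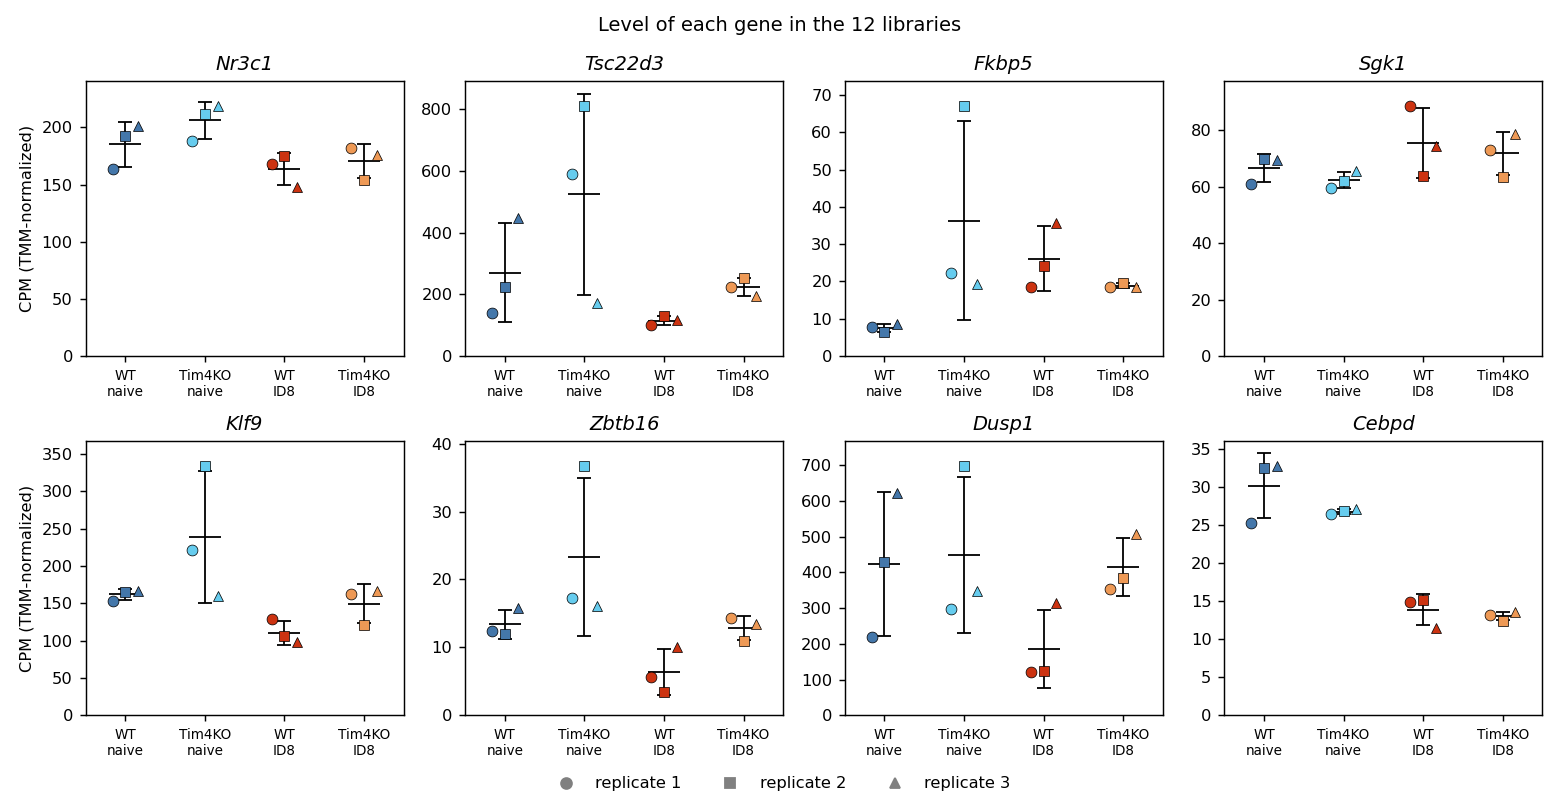
Level of each of the 8 genes in every library, in CPM after TMM normalization (y axis, from 0), by group (x axis). Symbols are the 3 libraries of a group, the long bar is their mean and the error bars are 1 SD. Cebpd separates naive from ID8 libraries in both genotypes, and Tim4KO naive replicate 2 is the highest library for 5 of the 8 genes.

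Nr3c1 (ENSMUSG00000024431), which encodes the receptor, varied little. Its level was 163, 192 and 201 CPM in WT naive, 188, 212 and 219 CPM in Tim4KO naive, 168, 175 and 148 CPM in WT ID8, and 182, 154 and 176 CPM in Tim4KO ID8 libraries. The highest library exceeded the lowest 1.48-fold, and of the 4 pairs of groups compared only Tim4KO naive and Tim4KO ID8 cells did not overlap. Means ran from 206 ± 16.1 CPM (SD, n = 3) in Tim4KO naive through 185 ± 19.7 in WT naive and 171 ± 14.9 in Tim4KO ID8 to 164 ± 14.2 in WT ID8 cells. The neighbours in this order differed by little more than 1 SD or less. The log2 difference on challenge was -0.18 in WT cells (SE 0.13, 95% interval -0.45 to 0.09, edgeR adjusted p = 0.265) and -0.27 in Tim4KO cells (SE 0.13, interval -0.54 to -0.00, edgeR adjusted p = 0.160). With upper-quartile scaling, which moved the median of all genes to -0.28 in WT and -0.17 in Tim4KO cells, both passed the test, at -0.42 (edgeR adjusted p = 0.0133) and -0.39 (edgeR adjusted p = 0.0297). DESeq2 also called the Tim4KO difference, at -0.32 (DESeq2 adjusted p = 0.0270). Per kilobase of exon the receptor lay at 23.6 CPM over the 12 libraries, above 87.4% of the genes tested.

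The genes that supply the ligand or work on the receptor were listed by name, 25 in all, of which 23 were tested. In WT cells 11 of the 23 rose with the challenge and 2 fell, where 19.5% and 12.3% of all genes tested did, and in Tim4KO cells 8 rose and 3 fell, where 11.5% and 5.06% did. Of those that rose in WT cells, 9 encode HSP90, HSP70 or their co-chaperones: Hsp90aa1, Hsp90ab1, Hspa8, Stip1, Ptges3, Fkbp4, Ppid, Ppp5c and Bag1. Hsp90aa1, the inducible HSP90, moved from 87.3, 88.4 and 87.4 CPM in WT naive to 609, 603 and 327 CPM in WT ID8 libraries, and from 107, 85.2 and 84.8 to 187, 208 and 195 CPM in Tim4KO. All ID8 libraries lay above all naive ones, and all WT ID8 libraries above all Tim4KO ID8 libraries. The log2 difference was 2.55 in WT (SE 0.20, edgeR adjusted p = 1.535e-06) and 1.09 in Tim4KO cells (SE 0.19, edgeR adjusted p = 0.00153). Tim4KO ID8 cells lay 1.38 below WT ID8 cells on the log2 scale (-1.38, SE 0.19, edgeR adjusted p = 0.0159), the 1 call between genotypes in this list. It was lost when any 1 of 3 libraries was left out (WT ID8 2, Tim4KO ID8 1 or Tim4KO ID8 3). Without WT ID8 3 the list held 7 calls, 1 higher and 6 lower, where 997 of all genes were called, 390 higher and 607 lower. Fkbp4, the co-chaperone that competes with Fkbp5 for HSP90 and favours receptor activity, rose from 92.2 to 189 CPM in WT cells, by 1.04 on the log2 scale. Smarca4, the ATPase of the BAF chromatin remodelling complex, rose in both genotypes, by 0.96 in WT (edgeR adjusted p = 2.58e-05) and 0.89 in Tim4KO cells (edgeR adjusted p = 9.42e-05). Nr3c2, the mineralocorticoid receptor, which also binds glucocorticoids, fell from 9.19 to 2.47 CPM in WT cells (log2 -1.88, edgeR adjusted p = 0.000396) and from 10.96 to 3.46 CPM in Tim4KO cells (log2 -1.64, edgeR adjusted p = 0.00178). Hsd11b1, which regenerates active glucocorticoid inside cells, was spread from 3.27 to 25.01 CPM among WT ID8 libraries and was not called.

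Tsc22d3 (ENSMUSG00000031431) encodes GILZ, an inhibitor of NF-kB and AP-1, and is a classical receptor target. It held 139, 222 and 448 CPM in WT naive and 591, 811 and 170 CPM in Tim4KO naive libraries. In ID8 cells it was 99.7, 129 and 116 CPM in WT and 225, 254 and 195 CPM in Tim4KO. Every WT ID8 library lay below every WT naive and every Tim4KO ID8 library, whereas the other groups overlapped. The log2 difference on challenge was -1.23 in WT (SE 0.56, interval -2.50 to 0.03, edgeR adjusted p = 0.118) and -1.22 in Tim4KO cells (SE 0.56, interval -2.48 to 0.04, edgeR adjusted p = 0.181). Tim4KO minus WT was 0.95 in naive (SE 0.55, edgeR adjusted p = 0.826) and 0.97 in ID8 cells (SE 0.56, edgeR adjusted p = 0.506). Without Tim4KO naive replicate 3, the lowest library of its group, both challenge differences passed the test, at -1.20 (edgeR adjusted p = 0.0361) and -1.63 (edgeR adjusted p = 0.0341).

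Fkbp5 (ENSMUSG00000024222) was lowest in WT naive cells, at 7.69, 6.48 and 8.52 CPM, and all 9 other libraries lay above these. Tim4KO naive libraries held 22.4, 67.1 and 19.4 CPM, WT ID8 libraries 18.5, 24.1 and 35.7 CPM and Tim4KO ID8 libraries 18.5, 19.6 and 18.6 CPM. Among the last 3 groups the ranges overlapped, and the Tim4KO ID8 libraries were the closest to each other (18.9 ± 0.616 CPM, SD, n = 3). In WT cells Fkbp5 rose 3.48-fold on challenge (log2 1.80, SE 0.44, interval 0.82 to 2.78, edgeR adjusted p = 0.0120). Without WT ID8 replicate 3, its highest WT ID8 library, the difference was 1.53 and did not pass the test (edgeR adjusted p = 0.0750). With the olfactory and vomeronasal signal as a covariate it was 1.27 (edgeR adjusted p = 0.172). That signal was 324 to 836 CPM in WT naive libraries against 6.25 to 254 CPM in those of WT ID8, and its part in the result was not tested beyond this fit. In Tim4KO cells the difference was -0.93 (SE 0.42, interval -1.86 to 0.01, edgeR adjusted p = 0.171), and -0.13 without Tim4KO naive replicate 2.

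Between genotypes in naive cells, the log2 difference of Fkbp5 was 2.24 (SE 0.45, interval 1.25 to 3.24, unadjusted p = 0.0004646), and after adjustment over all genes it did not pass the test (edgeR adjusted p = 0.261). It passed in 2 of 8 other settings, with DESeq2 (2.23, DESeq2 adjusted p = 1.109e-05) and without the filter on low counts (2.25, edgeR adjusted p = 0.0224). With 1 library left out it passed in 1 of 12 fits, without Tim4KO naive replicate 2 (1.47, edgeR adjusted p = 0.0375), and the edgeR adjusted p reached 0.894 among these fits. The challenge response in Tim4KO minus that in WT was -2.72 (SE 0.61, interval -4.08 to -1.37, unadjusted p = 0.00110, edgeR adjusted p = 0.668), where 0% of all genes passed and 1186 had an unadjusted p under 0.05. DESeq2 called this difference (DESeq2 adjusted p = 0.00170), and edgeR did so without the filter on low counts (edgeR adjusted p = 0.0460). These were 2 of 7 other settings, and 0 of 12 fits with 1 library left out called it. Of the 8 genes, 1 had an unadjusted p under 0.05 there, which was Fkbp5. These 3 comparisons all use the WT naive libraries. The signal from olfactory and vomeronasal genes in naive cells was 324 to 836 CPM in WT and 267 to 449 CPM in Tim4KO libraries.

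Sgk1 (ENSMUSG00000019970), a serine/threonine kinase that controls ion channels, varied little. It lay at 61.1, 69.8 and 69.4 CPM in WT naive, 59.7, 62.1 and 65.5 CPM in Tim4KO naive, 88.6, 63.9 and 74.4 CPM in WT ID8, and 73.2, 63.6 and 78.8 CPM in Tim4KO ID8 libraries. The highest library exceeded the lowest 1.48-fold, and every pair of groups compared overlapped. The challenge difference was 0.18 in WT (SE 0.13, interval -0.11 to 0.46, edgeR adjusted p = 0.308) and 0.20 in Tim4KO cells (SE 0.13, interval -0.08 to 0.49, edgeR adjusted p = 0.341) on the log2 scale. Upper-quartile scaling turned the WT value to -0.05. Of the 6 promoter windows of Sgk1, the 1 printed holds the core of the response element.

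Dusp1 (ENSMUSG00000024190) encodes a phosphatase that switches off p38 and JNK. Per kilobase of exon it was the most abundant of the 8, at 111 CPM over the 12 libraries. It held 219, 430 and 623 CPM in WT naive, 298, 698 and 348 CPM in Tim4KO naive, 122, 123 and 313 CPM in WT ID8, with 353, 385 and 508 CPM in Tim4KO ID8 libraries. WT ID8 libraries lay below all Tim4KO ID8 libraries and overlapped WT naive ones through WT ID8 replicate 3. The log2 difference was -1.18 on challenge in WT (SE 0.51, interval -2.34 to -0.02, edgeR adjusted p = 0.104), -0.11 in Tim4KO (SE 0.51, edgeR adjusted p = 0.906) and 1.15 for Tim4KO minus WT in ID8 cells (SE 0.51, interval -0.01 to 2.31, edgeR adjusted p = 0.416). Without WT ID8 replicate 3 the WT challenge difference was -1.77 and passed the test (edgeR adjusted p = 0.0433), as it did with limma voom (-1.21, limma adjusted p = 0.0373). With all libraries in edgeR, the response in Tim4KO minus that in WT was 1.07 (SE 0.72, interval -0.55 to 2.70, edgeR adjusted p = 0.719). Dusp1 also responds to handling as an immediate early gene. The summed level of 14 other immediate early genes was 803 to 1068 CPM in all libraries, 803 to 933 in WT naive and 891 to 951 in WT ID8, and their part in the Dusp1 values was not tested. Of the 13 of them tested, 3 rose in WT cells on challenge (Jun, Jund and Atf3) and 1 fell (Btg2), and in Tim4KO cells 1 fell (Fosl2). The WT count is close to the 31.8% of all genes called, and the Tim4KO count is below the 16.6% there. Exons of Dusp1 overlap those of Ergic1 on the opposite strand over 11 of 3311 bases.

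The 3 transcription factors among the targets were lower after challenge in each genotype's mean. Klf9 (ENSMUSG00000033863), a zinc finger repressor, held 153, 166 and 167 CPM in WT naive against 129, 106 and 97.9 CPM in WT ID8 libraries, with no overlap. In Tim4KO it held 221, 334 and 160 CPM in naive and 163, 120 and 166 CPM in ID8 libraries, where replicate 3 of the naive group lay inside the ID8 range. Klf9 fell in Tim4KO cells (log2 -0.67, SE 0.22, interval -1.13 to -0.21, edgeR adjusted p = 0.0476), and in WT cells the difference was -0.55 (SE 0.22, interval -1.01 to -0.08, edgeR adjusted p = 0.0663). Both sit at the threshold. The Tim4KO call was kept in 2 of 12 fits that left out 1 library, without Tim4KO naive 3 and without WT ID8 3, and was -0.33 without Tim4KO naive 2 (edgeR adjusted p = 0.329). The WT difference passed in 5 of 8 other settings. The challenge response in Tim4KO minus that in WT was -0.12 (SE 0.30, interval -0.77 to 0.53, edgeR adjusted p = 0.925).

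Zbtb16 (ENSMUSG00000066687) encodes PLZF, a repressor that also drives innate lymphocyte development. It held 12.5, 11.95 and 15.8 CPM in WT naive against 5.64, 3.52 and 10.04 CPM in WT ID8 libraries, all of the latter lower. Tim4KO naive libraries held 17.2, 36.8 and 16.1 CPM, all above WT naive. Tim4KO ID8 libraries held 14.3, 10.9 and 13.4 CPM, all below Tim4KO naive and above WT ID8. By mean the order was Tim4KO naive (23.3 ± 11.6 CPM), WT naive (13.4 ± 2.08), Tim4KO ID8 (12.9 ± 1.77) and WT ID8 (6.40 ± 3.32, SD, n = 3 each), and WT naive and Tim4KO ID8 did not differ beyond their spread. Zbtb16 fell in WT cells on challenge (log2 -1.03, SE 0.37, interval -1.83 to -0.23, edgeR adjusted p = 0.0490), and the call was kept in 2 of 12 fits that left out 1 library, those without Tim4KO naive 2 and without WT ID8 3. The other 10 gave -1.08 to -0.71, the latter without WT ID8 2 (edgeR adjusted p = 0.164), and 2 of 8 other settings lost the call. In Tim4KO cells the difference was -0.84 (SE 0.36, interval -1.62 to -0.07, edgeR adjusted p = 0.134). Response in Tim4KO minus response in WT was 0.19 (SE 0.51, interval -0.91 to 1.30, edgeR adjusted p = 0.93).

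Tim4KO minus WT was 0.78 for Zbtb16 in naive cells (SE 0.36, unadjusted p = 0.0479, edgeR adjusted p = 0.787) and 0.98 in ID8 cells (SE 0.37, unadjusted p = 0.0205, edgeR adjusted p = 0.331). Without WT ID8 replicate 3, the highest of its group, the ID8 value was 1.52 and passed the test (edgeR adjusted p = 0.0402), and without the filter on low counts it was 0.92 (edgeR adjusted p = 0.0111). Markers of T, NK and innate lymphoid cells, 13 listed and 7 tested with none at 0 in all libraries, summed to 11.9 to 19.7 CPM in WT naive, 6.79 to 11.5 in Tim4KO naive, 4.93 to 10.6 in WT ID8 and 7.55 to 8.84 in Tim4KO ID8 libraries. In naive cells the sums were lower and Zbtb16 higher in Tim4KO than in WT, whereas in WT cells both were lower after challenge. The part of these markers in the Zbtb16 values was not tested.

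Cebpd (ENSMUSG00000071637), a bZIP factor that glucocorticoids and inflammatory signals both induce, separated naive from ID8 libraries in both genotypes. It held 25.2, 32.5 and 32.8 CPM in WT naive, with 26.4, 26.9 and 27.1 CPM in Tim4KO naive libraries, but 14.96, 15.1 and 11.5 CPM in WT ID8, with 13.1, 12.5 and 13.5 CPM in Tim4KO ID8 libraries. No ID8 library reached any naive library. Cebpd fell 2.19-fold in WT (log2 -1.13, SE 0.15, interval -1.45 to -0.81, edgeR adjusted p = 9.513e-05) and 2.05-fold in Tim4KO cells (log2 -1.04, SE 0.15, interval -1.36 to -0.72, edgeR adjusted p = 0.000377). Both calls held in all 8 other settings and in all 12 fits that left out 1 library. The responses of the genotypes differed by 0.09 (SE 0.21, interval -0.35 to 0.54, edgeR adjusted p = 0.913). Exons of Cebpd overlap those of Spidr on the opposite strand over 562 of 3746 bases, and the counts may hold reads of either where strand was not used. Among its relatives, Cebpa fell from 99.96 to 44.7 CPM in WT cells (log2 -1.16, edgeR adjusted p = 0.000633) and Cebpg from 101.9 to 57.8 CPM (log2 -0.82, edgeR adjusted p = 0.00101), and both fell in Tim4KO cells, while Cebpe rose in both genotypes. Marker sums of mast cells (16.4 to 39.9 CPM in WT naive, 2.53 to 6.10 in WT ID8) and of small peritoneal macrophages and dendritic cells (63.9 to 86.7 and 18.2 to 47.6 CPM) were also lower after challenge. The neutrophil sum went from 7.27 to 8.23 CPM up to 12.2 to 32.2 CPM. Their part in the challenge differences was not tested.

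**Figure D2:**
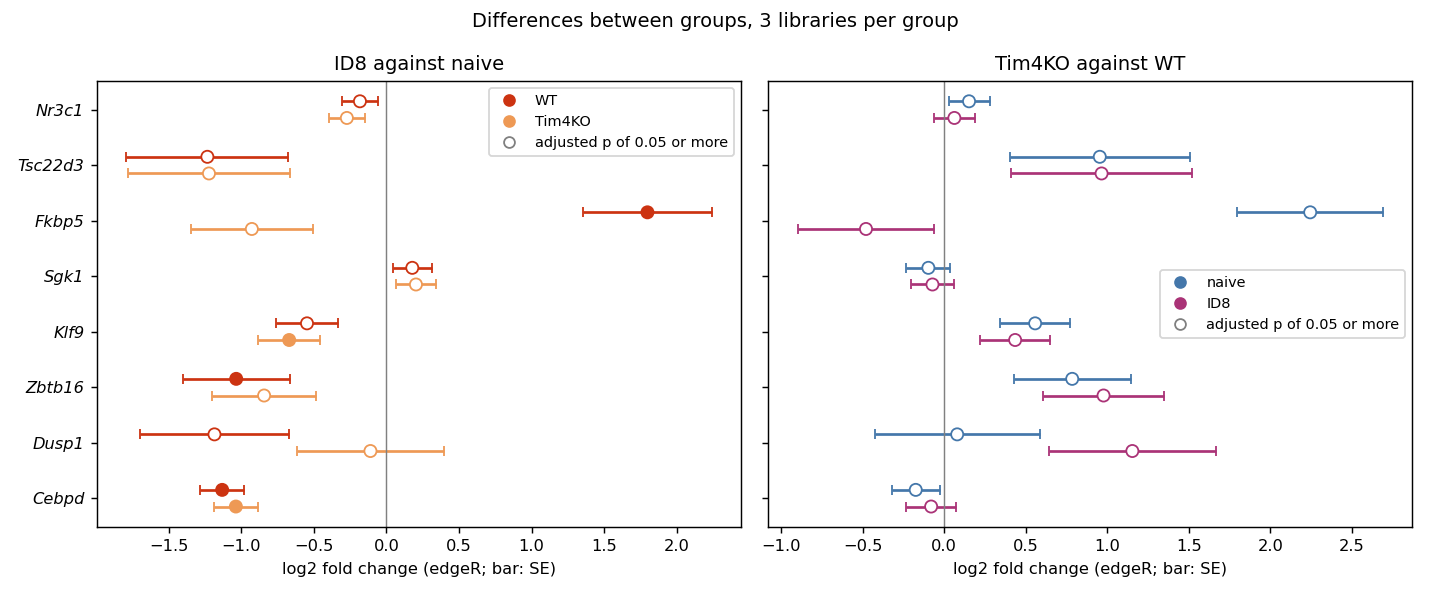
Log2 fold change of each gene (x axis) with its SE, for ID8 against naive cells (left) and Tim4KO against WT cells (right). Filled points passed the test and open points did not; the 5 filled points are Fkbp5 (1.80), Zbtb16 (-1.03) and Cebpd (-1.13) in WT and Klf9 (-0.67) and Cebpd (-1.04) in Tim4KO cells, all on challenge.

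The genotype differences of several targets shared a direction without passing the test. Averaged over naive and ID8 cells, Tim4KO minus WT was 0.96 for Tsc22d3 (unadjusted p = 0.0374, edgeR adjusted p = 0.419), 0.88 for Fkbp5 (0.0150 and 0.333), 0.50 for Klf9 (0.00569 and 0.259) and 0.88 for Zbtb16 (0.00470 and 0.243) on the log2 scale. In the same average Dusp1 (0.62) and Nr3c1 (0.11) were also above 0, and Sgk1 (-0.08) and Cebpd (-0.13) below 0. Of the 8 genes 0 passed, where 0.289% of all genes did, and 4 had an unadjusted p under 0.05, where 1759 of 15943 genes did. DESeq2 called 1 of the 8 (Zbtb16), where it called 210 of all genes. Without the filter on low counts edgeR called 2 (Klf9 and Zbtb16), where it called 195 of all genes. In naive cells 2 of the 8 genes did not overlap between genotypes, both higher in Tim4KO, where 7.34% of all genes were higher without overlap. In ID8 cells 3 of 8 did so, all higher in Tim4KO (Tsc22d3, Zbtb16 and Dusp1), where 7.06% of all genes were. For Fkbp5 the averaged value joins 2.24 in naive with -0.48 in ID8 cells.

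Some of this spread lay in single libraries. Tim4KO naive replicate 2 was the highest of all 12 libraries for 5 of the 8 genes (Tsc22d3, Fkbp5, Klf9, Zbtb16 and Dusp1), and it was the shallowest library, with 7358559 counts. In Tim4KO naive replicate 3 the same 5 genes lay at 170, 19.4, 160, 16.1 and 348 CPM. Within the Tim4KO naive group these genes were thus spread over a 2.09-fold range (Klf9) to a 4.77-fold range (Tsc22d3), whereas Cebpd stayed within 26.4 to 27.1 CPM. After subtracting group means, 22 of the 28 pairs of the 8 genes had a positive Pearson correlation over the 12 libraries, with a median of 0.30, lowest -0.36 and highest 0.83 (Nr3c1 with Cebpd). These values share library depth and the same 12 libraries, and describe them only.

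**Figure D3:**
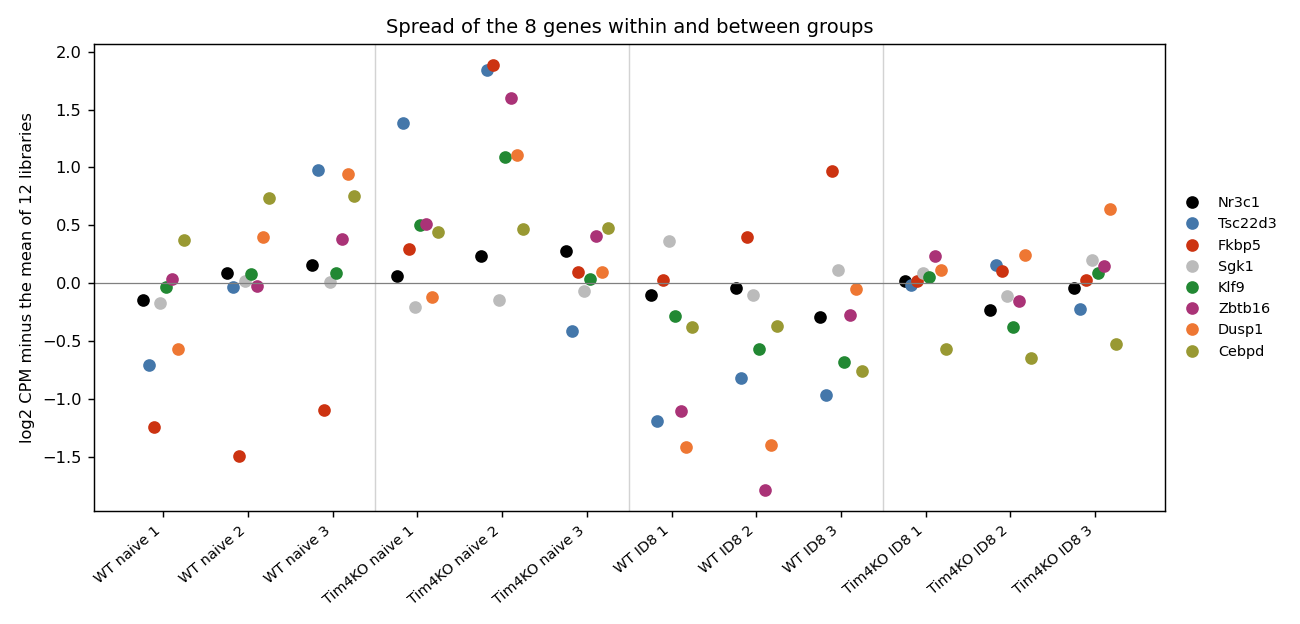
Log2 CPM of each gene minus its mean over the 12 libraries (y axis) for each library (x axis), with grey lines between groups. Tim4KO naive replicate 2 carries the highest value of 5 genes, WT naive libraries the lowest 3 values of Fkbp5, and Nr3c1 and Sgk1 stay near 0 throughout.

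Genes with the most similar pattern over the 12 libraries were ranked by Pearson correlation of log2 CPM among 9732 genes. For Nr3c1 they were Mllt10 (0.99), Atg4c (0.95) and Braf (0.94). For Tsc22d3 they were Mcl1 (0.93), Per1 (0.91) and Zfp866 (0.91), and for Fkbp5 Map3k6 (0.90), Cd244a (0.87) and Phtf1 (0.84). After subtracting group means the values for Fkbp5 were 0.59, 0.55 and 0.64. Per1, a clock gene, and Map3k6, a stress kinase, were also on the list of other glucocorticoid-induced genes. Sgk1 was closest to Mlxipl (0.86), Midn and Baiap2 (0.84 each), Klf9 to Atad2b (0.95), Lifr (0.94) and Klf3 (0.93), and Zbtb16 to Iffo1 (0.96), Stard9 (0.95) and Ankrd44 (0.94). Dusp1 was closest to Ulk1 (0.94), Slc8a1 (0.93) and Sort1 (0.92). Cebpd was closest to Clec7a, the beta-glucan receptor (0.98), Igf1 and Matk (0.97 each), whose correlations after subtracting group means were 0.56, 0.59 and 0.57.

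Other genes known to be induced by glucocorticoids moved in both directions on challenge. Of 30 listed genes 28 were tested, and in WT cells 8 rose and 12 fell, with a median log2 difference of -0.46, while in Tim4KO cells 7 rose and 10 fell, with a median of -0.57. Over all genes tested 19.5% rose and 12.3% fell in WT and 11.5% and 5.06% in Tim4KO cells, with medians of -0.04 and -0.05. Lcn2, an iron-scavenging protein of the acute response, rose from 2.30 to 84.0 CPM in WT (log2 5.15, edgeR adjusted p = 3.571e-07) and from 1.74 to 25.6 CPM in Tim4KO cells (log2 3.88, edgeR adjusted p = 6.89e-06). Mt2, a metal-binding protein, rose in Tim4KO cells from 0.801 to 10.6 CPM (log2 3.76, edgeR adjusted p = 0.000148) and also in WT cells. Cdkn1c, a cell cycle inhibitor, fell in WT cells from 14.0 to 1.82 CPM (log2 -2.93, edgeR adjusted p = 5.448e-06). Sult1a1, a sulfotransferase, fell in WT cells from 90.3 to 12.9 CPM (log2 -2.79, edgeR adjusted p = 6.681e-06), and Bcl6, a repressor, fell in Tim4KO cells from 32.1 to 11.4 CPM (log2 -1.50, edgeR adjusted p = 6.636e-05). The scavenger receptor gene Cd163 and the feedback gene Per1 were among those that fell in both genotypes.

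Between genotypes 3 calls fell in this list, 1 of the 28 genes tested in each of naive cells, ID8 cells and the average. Among all genes 0.0439%, 0.0565% and 0.289% were called there. Map3k6 was higher in Tim4KO naive cells, at 13.1, 16.1 and 12.6 CPM against 6.71, 6.14 and 7.20 CPM in WT naive libraries (log2 1.05, SE 0.17, edgeR adjusted p = 0.0396). Its ID8 libraries held 11.1 to 12.3 CPM in WT and 10.03 to 12.2 CPM in Tim4KO, so that WT naive was the lowest group. Fkbp5 had the same lowest group, which is part of its correlation with Map3k6 given above and no separate observation. Lcn2 was lower in Tim4KO ID8 than in WT ID8 cells (log2 -1.71, SE 0.25, edgeR adjusted p = 0.0203). Per1 was higher in Tim4KO cells averaged over naive and ID8 cells (log2 1.69, SE 0.26, edgeR adjusted p = 0.0260), at 38.4, 47.7 and 15.5 CPM against 6.39, 8.41 and 13.6 CPM in naive and 11.5, 14.2 and 13.3 CPM against 5.06, 4.47 and 3.79 CPM in ID8 libraries. With 1 library left out, the list held 0 genes higher in Tim4KO in 10 of 12 fits for naive cells and in 7 of 12 for the average, and 0 genes lower in Tim4KO in 5 of 12 fits for ID8 cells. Over all genes the 12 fits called 0 to 14 higher in naive cells, 4 to 222 higher in the average and 1 to 607 lower in ID8 cells.

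Genes that glucocorticoids are known to repress mostly rose with the challenge in WT cells. Of 20 listed genes 18 were tested, and in WT cells 13 rose and 1 (Mmp9) fell, with a median log2 difference of 2.16. In Tim4KO cells 5 rose (Il1a, Il6, Ccl4, Ccl5 and Mmp12) and 1 fell (Mmp9), with a median of 1.02. Over all genes tested 19.5% rose in WT and 11.5% in Tim4KO cells. The cytokine gene Il6 lay at 1.84, 4.34 and 4.401 CPM in naive WT libraries against 27.9, 34.1 and 17.6 CPM after challenge, while Tim4KO libraries held 3.44, 1.47 and 2.03 CPM when naive against 8.38, 8.58 and 11.5 CPM after challenge. It rose in WT (log2 2.87, edgeR adjusted p = 6.321e-05) and in Tim4KO cells (log2 2.01, edgeR adjusted p = 0.00200), and no Tim4KO ID8 library reached a WT ID8 library. The chemokine genes Ccl4 and Ccl5 rose by 3.16 and 3.51 in WT and by 2.08 and 3.13 in Tim4KO cells on the log2 scale. Between genotypes in ID8 cells 0 of the 18 genes passed the test with edgeR, 9 had an unadjusted p under 0.05, and 17 had lower values in Tim4KO, with a median of -0.95 against 0.01 over all genes. Over all genes 0.0565% passed and 1935 of 15943 had an unadjusted p under 0.05. DESeq2 called 3 of them lower, where it called 200 of all genes lower. Without WT ID8 replicate 3, 7 were called lower with edgeR, where 607 of all genes were.

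Relatives of the 8 genes in the same gene families were called about as often as all genes. Of 36 listed 33 were tested, and 5 rose and 5 fell in WT cells, while 4 rose and 3 fell in Tim4KO cells, which is 30.3% and 21.2% of those tested against 31.8% and 16.6% of all genes. Fkbp2, an immunophilin of the endoplasmic reticulum, rose in Tim4KO cells from 95.7 to 164.7 CPM (log2 0.78, edgeR adjusted p = 0.00400). Dusp10, a phosphatase of JNK and p38, rose there from 1.21 to 3.66 CPM (log2 1.59, edgeR adjusted p = 0.00400). With upper-quartile scaling the WT counts became 2 higher and 11 lower. Nr3c2 belongs to both this list and that of receptor partners.

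**Figure D4:**
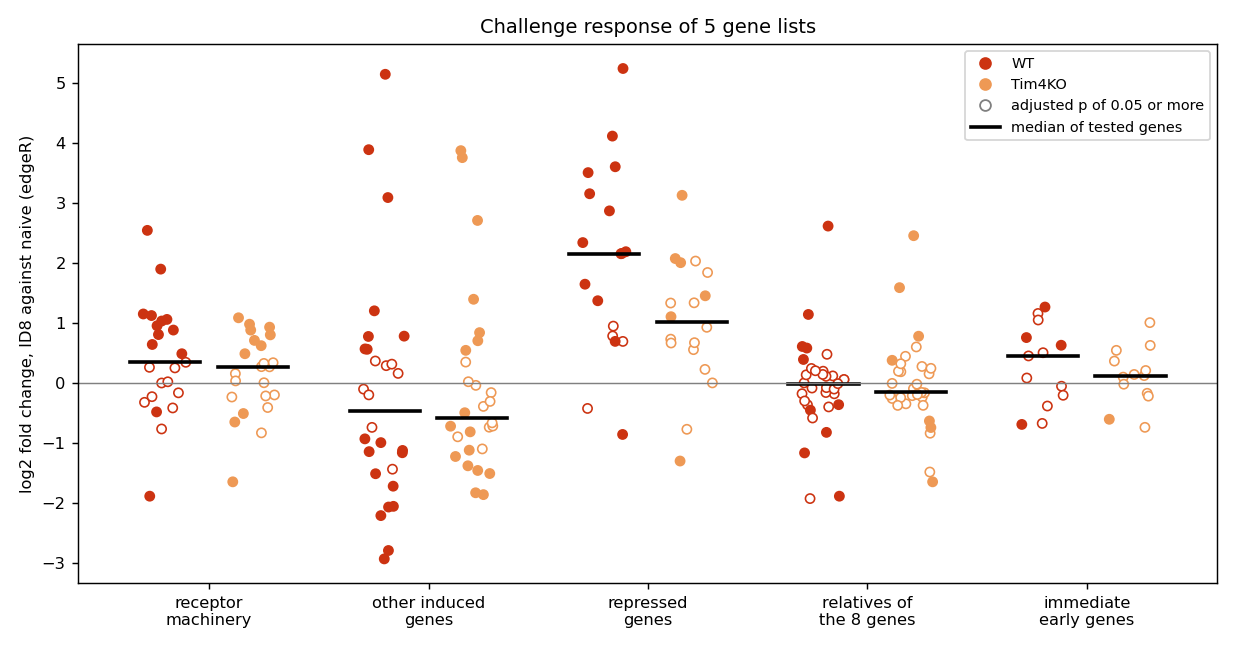
Log2 fold change on challenge (y axis) of each tested gene of 5 lists (x axis), in WT and Tim4KO cells; filled points passed the test and black bars are medians. The repressed genes sit highest, with medians of 2.16 in WT and 1.02 in Tim4KO cells, and the other induced genes lowest, with medians of -0.46 and -0.57.

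**Figure D5:**
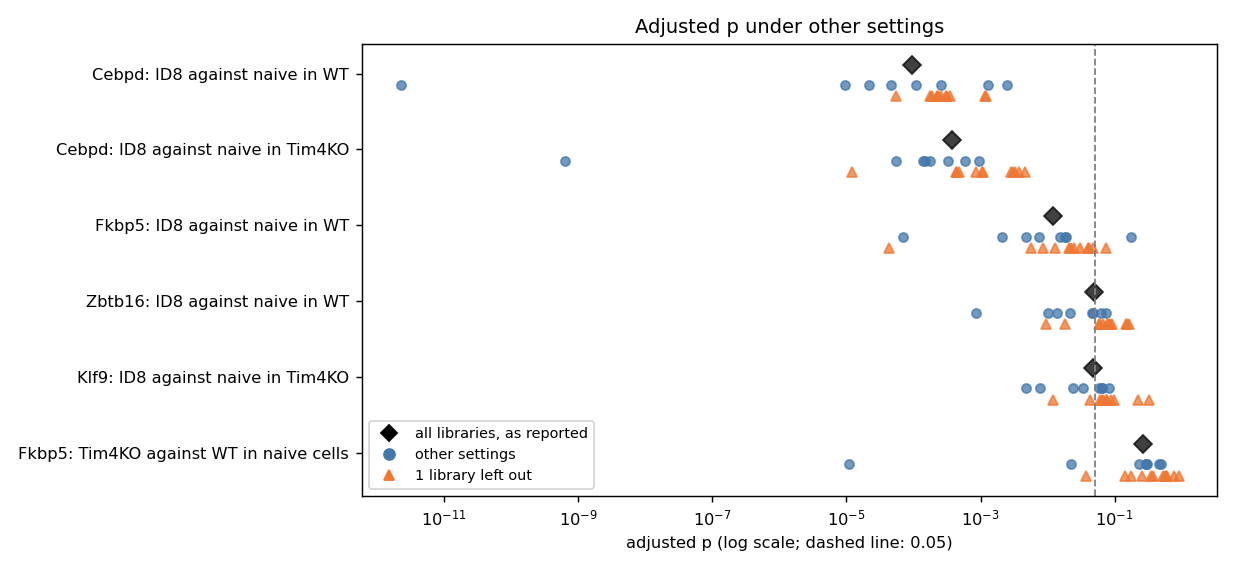
Adjusted p (x axis, log scale) of 6 results under the reported fit (black), 8 other settings (blue) and 12 fits without 1 library (orange), with the threshold of 0.05 dashed. The Cebpd points all lie left of the line, whereas those of Zbtb16, Klf9 and both Fkbp5 results fall on both sides.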

How the data were processed

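The authors deposited a table of raw counts per Ensembl gene for 12 libraries of sorted cells, and the kit was SMART-Seq mRNA LP, per the labels. FastQC, STAR 2.5 and the builds mm10 and GRCm39 are named in the submitters' processing notes without a role, and the counting program, annotation and use of strand are not given in the sources used here. Genes were named from a reference table (52029 of 57010 identifiers). Counts were filtered with filterByExpr, which left 15943 genes, scaled by TMM and fitted in 1 model of 4 groups with edgeR 4.0.16 (R 4.3.3, quasi-likelihood test, Benjamini-Hochberg adjustment over all genes tested, 8 residual degrees of freedom among samples), which was tested on simulated data with 200 changed genes. CPM are TMM-normalized, and CPM per kilobase uses GENCODE vM21 exon lengths. Intervals are 95% and unadjusted. A floor of 3 counts is 0.137 to 0.399 CPM, which all members exceed in every library. Alternatives were DESeq2 1.42.0, its size factors, upper-quartile scaling, no filter, limma voom 3.58.1, fits of the compared groups alone, the replicate block, a covariate for olfactory and vomeronasal receptor signal, and leaving out each library. Named genes were the 8 members, Timd4, the called genes of smallest p per list and comparison (up to 3), and the 3 genes most correlated with each member (mean normalized count of at least 50). Further called genes are named only as examples or in counts, chosen after their values were seen. The members and lists were chosen with earlier results of these data known.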

Additional observations from a re-analysis of the deposited data

How the results depend on the processing

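Of the results for single genes under the settings other than leaving out a library, 376 kept direction and side of the threshold, 25 passed it newly, 7 no longer passed and 6 changed sign; with 1 library left out the numbers were 594, 9, 21 and 24. Calls over all genes in the same fits stand in parentheses in the rest of this paragraph. For Tim4KO against WT in naive cells, 1 of the 8 genes, Fkbp5, was called without the filter (59) and with DESeq2 (52). Leaving out 1 library gave 0 to 1 of the 8 (1 to 29). In ID8 cells 1, Zbtb16, was called without the filter (264) and 0 to 1 with 1 library left out (1 to 997). For the WT challenge 5 were called with upper-quartile scaling (5307), and 2 to 4 with 1 library left out (3362 to 7230). For the Tim4KO challenge 4 were called with DESeq2 (3161), and 1 to 3 with 1 library left out (1222 to 3595). Limma voom (2553), the fit of only the groups compared (3827) and the replicate block (2562) called 1 each. For the difference of responses 1 was called without the filter (73) and 1 with DESeq2 (11), and 0 with 1 library left out (0 to 368). For the genotype average 2 were called without the filter (195) and 1 with DESeq2 (210), and 0 to 1 with 1 library left out (8 to 396). The cause was not tested.

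Signs changed for Dusp1 between genotypes in naive cells (-0.0239 with the background covariate, -0.39 to 0.47 with 1 library left out) and for Sgk1 in the WT challenge (-0.0546, upper-quartile scaling). For the difference of responses they changed for Nr3c1 (0.0305) and Klf9 (0.003) with upper-quartile scaling and for Tsc22d3 (-0.0429) and Sgk1 (-0.0237) without the filter. With 1 library left out the range was -0.58 to 0.45 for Tsc22d3, -0.10 to 0.10 for Sgk1, -0.36 to 0.18 for Klf9, -0.11 to 0.75 for Zbtb16 and -0.0316 to 0.20 for Cebpd. It was -0.32 to 0.38 for Dusp1 in the Tim4KO challenge, and -0.0024 to 0.13 for Nr3c1 and -0.18 to 0.0098 for Sgk1 between genotypes in ID8 cells. None of these values passed the test.

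Over all genes, the 7 calls between genotypes in naive cells became 59 without the filter, 52 with DESeq2, 4 with limma voom, 2 with only the groups compared and 3 with the replicate block. The 9 in ID8 cells became 264 without the filter, 265 with DESeq2, 197 with the background covariate, 14 with the replicate block and 997 without WT ID8 replicate 3. The 5067 of the WT challenge became 3102 with only the groups compared and 7230 without WT ID8 replicate 1. The 2642 of the Tim4KO challenge became 1222 without Tim4KO naive replicate 2 and 3827 with only the groups compared. The 0 for the difference of responses became 73 without the filter, 11 with DESeq2, 2 with the background covariate and 368 without WT ID8 replicate 3. The 46 of the genotype average became 195, 210, 10 and 127 without the filter, with DESeq2, with the replicate block and with the background covariate. They became 396 without WT ID8 replicate 3. Upper-quartile scaling moved the share of higher among calls from 61.3% to 33.9% in the WT and from 69.5% to 48.7% in the Tim4KO challenge.

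With the replicate block, Zbtb16 in the WT challenge (-1.06, edgeR adjusted p = 0.0749) and Klf9 in the Tim4KO challenge (-0.64, edgeR adjusted p = 0.0808) did not pass, and Dusp1 in the WT challenge did (-1.17, edgeR adjusted p = 0.0492). The labels do not say whether same-numbered libraries share more than a number. Over 18 such pairs the deviations from group means correlated at -0.10 to 0.34, 7 above 0.1. Of the 12 libraries, 4 correlated best with their own number. With 3 libraries per group these values cannot decide whether same-numbered libraries were paired or shared a batch.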
